A study of Homo sapiens with 8 samples.

Results

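The enzymes described here make, split or pass on the nitrogen of glutamine and glutamate, and 9 of their genes were taken by name: GLUL, GLS2, GLUD1, ASNS, GOT1, GOT2, GPT2, PSAT1 and GFPT1. In the annotation used here, 6 of the 9 were measured by a probeset that names a single gene (GLUL, ASNS, GOT1, GOT2, PSAT1 and GFPT1), out of 18417 genes so measured on the array, while GLS2, GLUD1 and GPT2 were not analysed here. The 9 were chosen with their log2 differences on these same arrays in view, so their differences are given as a description and without a test. RNA came from spheroids, compact aggregates of about 300 μm grown in agarose molds, and was read on the Affymetrix Human Gene 1.0 ST array. The resistant line, OVCAR-8R, was selected from the ovarian adenocarcinoma line OVCAR-8 in rising doses, up to 5 μM, of cisplatin, whose platinum binds and crosslinks DNA, and it stayed resistant once the drug was withdrawn. The sample labels call it OVCAR-8C. There were 4 arrays of OVCAR-8R spheroids and 4 of parental OVCAR-8 spheroids, which had not been exposed stepwise. It is a single derived line, so the arrays compare these lines and not resistant with sensitive cells in general.

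Glutamine is the most abundant free amino acid of blood and the main nitrogen donor of growing cells. Glutamine synthetase (GLUL) joins ammonia to glutamate to make it, glutaminases such as GLS2 turn it back into glutamate, and amidotransferases such as ASNS and GFPT1 move its amide nitrogen onto asparagine and amino sugars. Glutamate in turn hands its amino group to other carbon skeletons through aminotransferases (GOT1, GOT2, GPT2 and PSAT1) or loses it to glutamate dehydrogenase (GLUD1), which feeds the carbon into the tricarboxylic acid cycle. Cancer cell lines vary in GLUL, and lines that express little of it generally depend more on glutamine from the medium.

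Signals are log2 values of the RMA signal that the authors deposited, and every difference is the OVCAR-8R mean minus the OVCAR-8 mean with its standard error from limma (n = 4 arrays per line), at times alone in parentheses. A difference of 1 is 2-fold. Signals of different probesets depend on their probes and are not set against each other. Array medians lay between 6.68 and 6.73 in OVCAR-8R and between 6.67 and 6.73 in OVCAR-8. Genes outside the 9 were called where they differed by at least 2-fold with an adjusted p (Benjamini-Hochberg, 25628 probesets) under 0.05. By that rule 8.37% of 15931 genes were higher in OVCAR-8R and 8.37% lower, 16.7% in all, and by probeset 7.10% were higher and 7.24% lower, 14.3% in all. Of 6 epithelial markers (KRT7, KRT8, KRT18, KRT19, EPCAM and PAX8) 5 were higher in OVCAR-8R, and KRT19 did not pass. Of 7 markers of immune, endothelial and liver cells, PTPRC, CD3E and ALB lay in the lowest quartile of signal in each line and the other 4 did not pass. What part such marker differences have in the enzyme values was not tested. In spheroids, fewer cells of a type and less RNA per cell cannot be told apart.

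GLUL, glutamine synthetase, had the largest difference among the 6 genes, and it was lower in OVCAR-8R spheroids. Its brighter probeset gave 6.56, 6.95, 6.08 and 6.72 on the 4 OVCAR-8R arrays, against 11.62, 11.40, 11.77 and 11.47 on the 4 OVCAR-8 arrays. The lines did not overlap, and 4.46 log2 units separated the highest OVCAR-8R array from the lowest OVCAR-8 array. Mean signals were 6.58 ± 0.37 in OVCAR-8R and 11.57 ± 0.16 in OVCAR-8 (SD, n = 4 each), a difference of -4.99 (standard error 0.17), or 31.7-fold. On the linear scale the signal averaged 97.8 ± 23.3 in OVCAR-8R and 3048 ± 345 in OVCAR-8 (SD, n = 4 each). By its brighter probeset, GLUL stood at place 8 among the 15931 genes, ranked by the size of the fall. Its OVCAR-8R mean lay above the lowest quartile, which ended at 5.11 in that line, and below the array medians of 6.68 to 6.73. No background level was measured here, so the fold is a ratio of signals and may understate the ratio of RNA levels.

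The other GLUL probeset also read lower in OVCAR-8R, but by less. It gave linear signals of 64.0, 67.5, 116 and 41.1 on the OVCAR-8R arrays, against 535, 372, 405 and 498 on the OVCAR-8 arrays. Again no array of one line reached the range of the other, and the gap was 1.68 log2 units. Its log2 means were 6.07 ± 0.61 in OVCAR-8R and 8.81 ± 0.25 in OVCAR-8 (SD, n = 4 each), a difference of -2.73 (standard error 0.27), or 6.65-fold. The probesets thus shared the direction, while the brighter one minus the other gave -2.26 log2 units for the size. The annotation ties each of them to the same 14 accessions, which do not tell them apart. The brighter one stands for GLUL by its signal alone, and which locus each reads was not settled. Within OVCAR-8R the probesets ordered the arrays differently: array 3 was the lowest by the brighter probeset and the highest by the other. RefSeq lists 6 GLUL pseudogenes (GLULP1 to GLULP6), and near-identical copies may share signal with either probeset. The sources used here do not place the probes on the genome. Averaging the probesets gave a difference of -3.86.

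The GLUL gene lies on chromosome 1 (chr1:182378098-182391790, minus strand), and all coordinates are those of GRCh38.p14. Promoter windows from RefSeq, each from 250 bases before to 50 bases after a transcript start, were found for 8 of the 9 genes, 10 windows in all, and GPT2 was unmatched. They were searched on each strand for TGATGNAA, the core of the C/EBP-ATF response element through which ATF4 acts when amino acids are short, and for the E-box CACGTG, the TATA box TATAAA, the CCAAT box CCAAT and the GC box GGGCGG. Of 35116 promoter windows of that length, 3.62% held TGATGNAA, 7.26% CACGTG, 11.5% TATAAA, 34.6% CCAAT and 45.0% GGGCGG. The promoters of the 3 genes with the lowest differences (GLUL, ASNS and PSAT1) are printed 5′ to 3′. So is that of GOT1, which like ASNS holds a match to TGATGNAA. In each, capitals mark TGATGNAA and CCAAT on either strand. The GLUL window spans chr1:182391741-182392040 (minus strand) and holds CCAAT at -128 and at -66 from the start, each on the gene's own strand, with no TGATGNAA.
GLUL: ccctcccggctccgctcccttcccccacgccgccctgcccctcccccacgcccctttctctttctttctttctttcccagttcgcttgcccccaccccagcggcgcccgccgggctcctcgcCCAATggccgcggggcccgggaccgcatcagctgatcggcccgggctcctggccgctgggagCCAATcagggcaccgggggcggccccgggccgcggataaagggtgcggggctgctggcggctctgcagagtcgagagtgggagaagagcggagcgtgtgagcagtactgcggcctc
A second RefSeq start of GLUL, within the gene, has a window with GC boxes alone among these motifs.

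**Figure D1:**
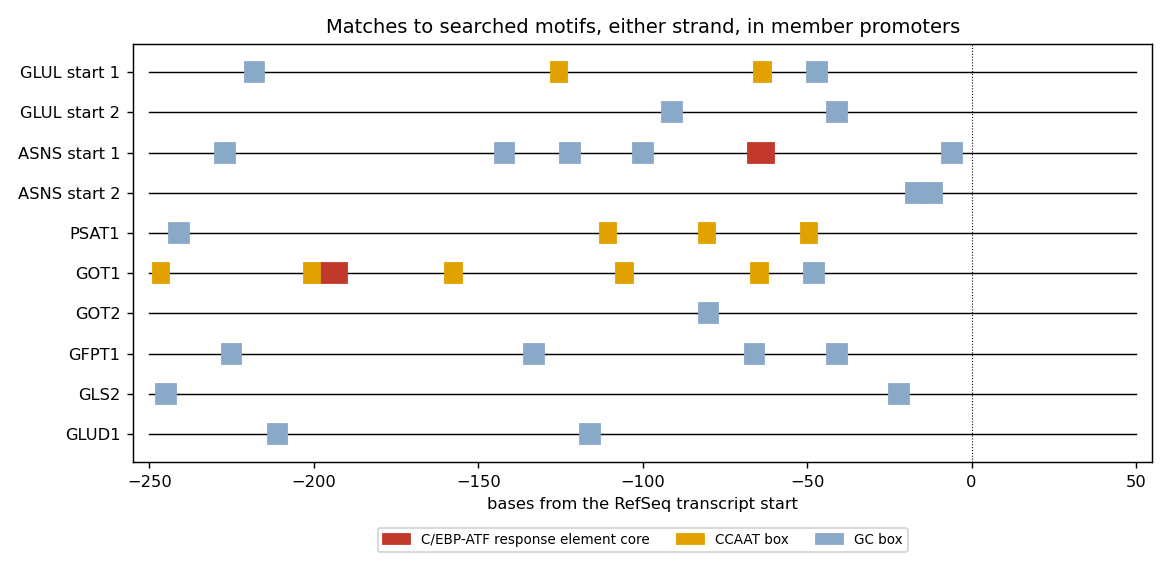
Matches to TGATGNAA (red), CCAAT (yellow) and GGGCGG (blue) on either strand in 10 RefSeq promoter windows of 8 of the genes, by distance in bases from the transcript start. TGATGNAA lies in the window of ASNS start 1 and in that of GOT1, and CACGTG and TATAAA had no match in any of the 10.

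Among genes outside the 9, those most like GLUL over the 8 arrays, by its brighter probeset, were GOLIM4, LIN28B, NEIL3, HOXD10 and UBB. The other GLUL probeset, which had a smaller difference, was not used for this. Likeness was the root mean square distance between log2 signals centred on each gene's OVCAR-8 mean, and it ran from 0.269 for GOLIM4 to 0.318 for UBB. HOXD10, a homeobox transcription factor, had 5.96 ± 0.12 in OVCAR-8R and 10.81 ± 0.15 in OVCAR-8 (SD, n = 4 each). UBB, a polyubiquitin gene, had 8.58 ± 0.20 in OVCAR-8R and 13.68 ± 0.07 in OVCAR-8 (SD, n = 4 each). Their differences were -4.85 and -5.09. GOLIM4, LIN28B and NEIL3 lay in the lowest quartile of signal in OVCAR-8R and passed the filter through OVCAR-8 alone, so the sizes of their falls, and the likeness built on them, rest on low signals. With 2 lines the likeness rests on the step between them.

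**Figure D2:**
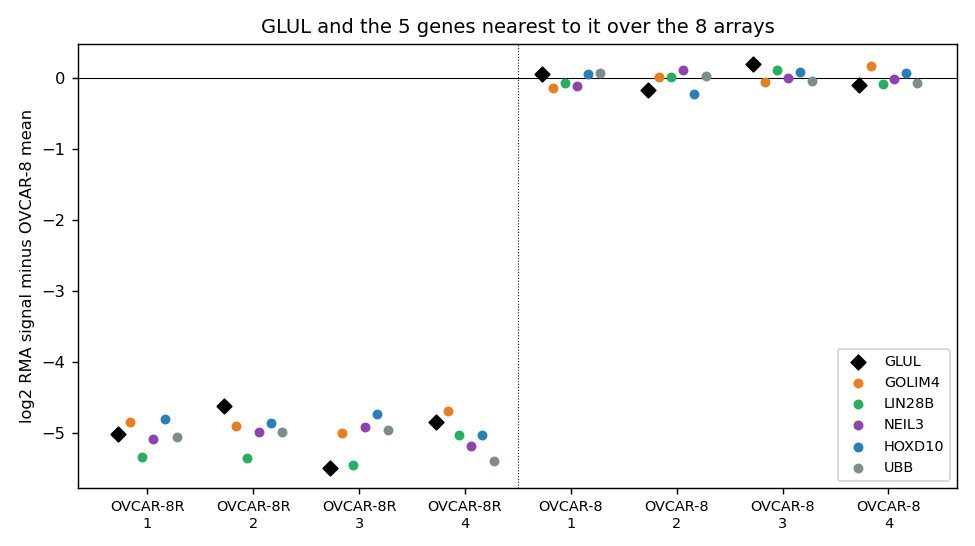
Log2 RMA signal minus the gene's OVCAR-8 mean on each of the 8 arrays for GLUL (brighter probeset, diamonds) and the 5 genes nearest to it. GLUL spread more within OVCAR-8R (SD 0.37) than any of the 5, whose SDs there ran from 0.117 to 0.199.

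ASNS, asparagine synthetase, which takes the amide nitrogen of glutamine to make asparagine from aspartate, was also lower in OVCAR-8R. It gave 8.69, 8.70, 8.73 and 8.84 on the OVCAR-8R arrays, against 10.24, 10.16, 10.23 and 10.13 on the OVCAR-8 arrays. The lines were 1.29 apart at their nearest arrays, many times the spread within either. Mean signals were 8.74 ± 0.07 in OVCAR-8R and 10.19 ± 0.05 in OVCAR-8 (SD, n = 4 each), a difference of -1.45 (standard error 0.07), or 2.73-fold. ASNS is a standard target of ATF4. A second RefSeq start of ASNS has a window with GC boxes alone among the motifs searched. The window of the first start (chr7:97872359-97872658, minus strand) holds TGATGNAA from -68 to -61.
ASNS: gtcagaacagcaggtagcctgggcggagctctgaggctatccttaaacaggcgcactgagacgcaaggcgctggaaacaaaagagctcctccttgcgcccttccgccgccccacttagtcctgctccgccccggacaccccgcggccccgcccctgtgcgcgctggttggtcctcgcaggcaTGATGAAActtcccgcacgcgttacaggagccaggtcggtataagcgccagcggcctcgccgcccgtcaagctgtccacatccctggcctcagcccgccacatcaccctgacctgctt
RefSeq lists 5 ASNS pseudogenes, which may share signal.

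PSAT1, phosphoserine aminotransferase, moves an amino group from glutamate onto the precursor of serine and releases α-ketoglutarate. It gave 9.17, 9.20, 9.01 and 9.06 on the OVCAR-8R arrays, against 9.95, 9.83, 10.05 and 9.97 on the OVCAR-8 arrays. The OVCAR-8R arrays were all lower, by at least 0.64, although the difference of the means stayed under 2-fold. Means were 9.11 ± 0.09 in OVCAR-8R and 9.95 ± 0.09 in OVCAR-8 (SD, n = 4 each), with a difference of -0.84 (standard error 0.08), or 1.79-fold. The PSAT1 window (chr9:78296875-78297174, plus strand) holds CCAAT at -113, -83 and -52 and no TGATGNAA.
PSAT1: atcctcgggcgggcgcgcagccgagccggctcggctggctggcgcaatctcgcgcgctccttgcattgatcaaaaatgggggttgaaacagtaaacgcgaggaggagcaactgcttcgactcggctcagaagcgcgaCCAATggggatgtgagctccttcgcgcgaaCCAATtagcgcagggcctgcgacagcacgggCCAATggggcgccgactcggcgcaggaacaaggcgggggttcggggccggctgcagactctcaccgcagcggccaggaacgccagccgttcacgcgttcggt
RefSeq lists 4 PSAT1 pseudogenes, which may share signal.

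GOT2 and GOT1, the mitochondrial and cytosolic aspartate aminotransferases, exchange the amino groups of glutamate and aspartate and carry electrons between the compartments in the malate-aspartate shuttle. GOT2 gave 12.09, 12.30, 12.27 and 12.32 on the OVCAR-8R arrays, against 11.94, 11.88, 12.01 and 11.91 on the OVCAR-8 arrays. The lines came within 0.081 of each other without overlap, with OVCAR-8R on the higher side. GOT2 averaged 12.24 ± 0.11 in OVCAR-8R and 11.94 ± 0.05 in OVCAR-8 (SD, n = 4 each), a difference of 0.31 (standard error 0.08), or 1.24-fold, and 0.46 under cyclic loess scaling. RefSeq lists 7 GOT2 pseudogenes. GOT1 gave 11.01, 11.18, 11.06 and 11.16 on the OVCAR-8R arrays, against 10.98, 10.86, 11.06 and 10.90 on the OVCAR-8 arrays. The lines overlapped, with OVCAR-8R array 1 below OVCAR-8 array 3. The difference was 0.15 (standard error 0.08), or 0.28 under cyclic loess, and GOT1 averaged 11.10 ± 0.08 in OVCAR-8R and 10.95 ± 0.09 in OVCAR-8 (SD, n = 4 each). The GOT1 window (chr10:99430575-99430874, minus strand) holds TGATGNAA on the opposite strand from -198 to -191, directly beside a CCAAT box on that strand, and 5 CCAAT boxes in all.
GOT1: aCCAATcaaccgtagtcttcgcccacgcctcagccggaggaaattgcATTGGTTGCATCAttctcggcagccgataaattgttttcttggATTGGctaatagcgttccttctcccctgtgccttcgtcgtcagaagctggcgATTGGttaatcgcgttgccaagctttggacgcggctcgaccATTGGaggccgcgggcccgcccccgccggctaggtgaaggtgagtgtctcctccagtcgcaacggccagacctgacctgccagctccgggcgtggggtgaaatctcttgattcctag
ASNS and GOT1 thus share the response element core, and ASNS read lower in OVCAR-8R while the GOT1 ranges overlapped. A match of letters does not show that a factor bound there.

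GFPT1, which uses glutamine to make glucosamine-6-phosphate and opens the hexosamine pathway, had overlapping signals in the lines. It gave 10.58, 10.57, 10.63 and 10.58 on the OVCAR-8R arrays, against 10.43, 10.61, 10.80 and 10.71 on the OVCAR-8 arrays. The OVCAR-8R arrays lay inside the OVCAR-8 range and spread less, averaging 10.59 ± 0.03 in OVCAR-8R and 10.64 ± 0.16 in OVCAR-8 (SD, n = 4 each). The difference was -0.051 (standard error 0.09), a sign that turned under cyclic loess scaling (0.070) and without OVCAR-8 replicate 3 (0.0036). In 4 of the 6 genes the lines did not overlap, beside 56.8% of the 15931 genes, and likewise in 5 of the 7 probesets, beside 48.9% of all. GLUL and ASNS, 2 of the 6, were lower by over 2-fold, beside 8.37% of all genes called lower, and none was higher by that much. Since the genes were chosen with these differences in view, the shares are given for scale.

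**Figure D3:**
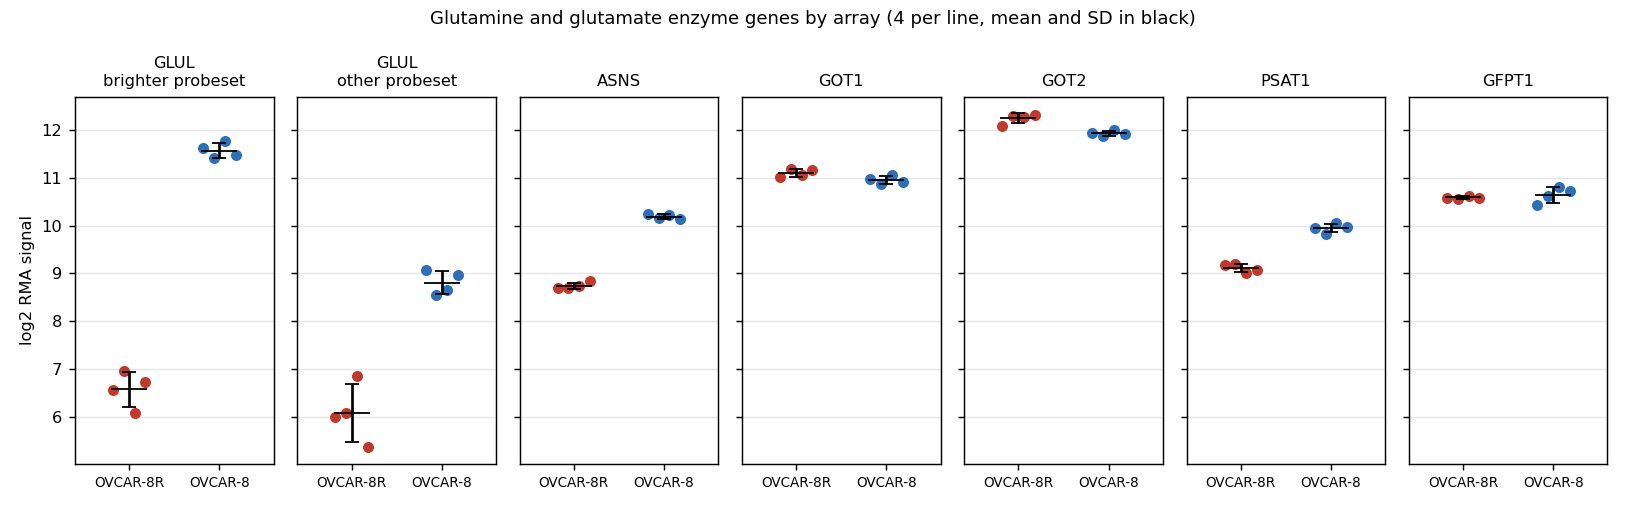
Log2 RMA signal of the 7 probesets of the 6 measured genes by array, OVCAR-8R (4 arrays) in red and OVCAR-8 (4 arrays) in blue, where black marks give a line's mean and SD. The lines are far apart for GLUL (differences of -4.99 and -2.73), apart for ASNS and PSAT1, nearly touching for GOT2 and overlapping for GOT1 and GFPT1. Heights of different probesets are not comparable.

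To place these genes, 12 lists of other genes around glutamine and glutamate were counted, 135 genes once each, of which 119 were measured above the filter on low signal. In OVCAR-8R spheroids 7 of the 119 were higher (5.88%) and 14 were lower (11.8%), 17.6% in all, beside 8.37% in each direction and 16.7% in all over every gene tested. When treat tested against a 2-fold margin, 7 were higher and 8 lower, and the calls of ALDH18A1, EPRS1, GAD1, NUPR1, OGT and PSPH ended. The median difference was -0.043, against -0.0097 over all genes.

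None of the 12 other aminotransferase genes passed the test, beside 16.7% of all genes called. Their differences ran from -0.97 for OAT, ornithine aminotransferase of the mitochondrion, to 0.55 for AGXT2, with a median of -0.030. OAT lay just under 2-fold, with 10.04 ± 0.09 in OVCAR-8R and 11.01 ± 0.15 in OVCAR-8 (SD, n = 4 each), and was called without OVCAR-8R replicate 3, OVCAR-8 replicate 3 or OVCAR-8 replicate 4. BCAT1, the cytosolic branched-chain aminotransferase, had a difference of 0.20 (standard error 0.07).

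Of 10 other genes whose products take nitrogen from glutamine or belong to that enzyme family, 2 were lower and 8 did not pass. Over all genes 8.37% were called lower, and the median difference of the 10 was -0.47. CTPS2, which makes CTP from UTP with glutamine nitrogen, gave 7.20, 7.39, 7.20 and 7.31 on the OVCAR-8R arrays, against 9.51, 9.18, 9.29 and 9.32 on the OVCAR-8 arrays. It fell by 2.05 log2 units (SE 0.09, limma adjusted p = 6.20e-08), while CTPS1, which encodes the other CTP synthase, had a difference of -0.12 (0.09). CPS1, the carbamoyl phosphate synthetase of the urea cycle, fell by 1.59 (0.09, adjusted p = 2.88e-07), and it uses free ammonia in place of glutamine. PPAT, which catalyses the first committed step of purine synthesis, had a difference of -0.95 (0.07), under 2-fold, and CAD one of 0.42 (0.07).

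Of 5 genes between glutamate and proline 1 was lower, of 4 others of serine and glycine synthesis 1 was lower, and of 9 other genes that use glutamate 1 was higher and 2 were lower, beside 16.7% of all genes called. ALDH18A1, which reduces glutamate on the way to proline, gave 8.46, 8.30, 8.54 and 8.33 on the OVCAR-8R arrays, against 9.63, 9.38, 9.65 and 9.56 on the OVCAR-8 arrays. It fell by 1.15 (standard error 0.09, adjusted p = 2.84e-06). PSPH, the phosphatase that follows PSAT1 in serine synthesis, gave 8.21, 8.70, 8.45 and 8.79 on the OVCAR-8R arrays, against 9.54, 9.62, 9.52 and 9.86 on the OVCAR-8 arrays. It was lower by 2.14-fold (adjusted p = 7.22e-05), its other probeset was also called lower, and the first was not called without OVCAR-8R replicate 1. PHGDH, the first enzyme of that route, had a difference of -0.46 (0.08), and SHMT1 and SHMT2, which turn serine into glycine, had 0.42 (0.11) and -0.24 (0.08). Among the glutamate users GCLM, the modifier subunit of the enzyme that starts glutathione synthesis, rose by 1.46 (0.13, adjusted p = 6.01e-06), with 7.98 ± 0.16 in OVCAR-8R and 6.52 ± 0.23 in OVCAR-8 (SD, n = 4 each). Its catalytic partner GCLC had a difference of 0.27 (0.09). EPRS1, which charges tRNA with glutamate and proline, fell by 1.11 (0.06, adjusted p = 3.94e-07), a call that also ended under cyclic loess, and GAD1, which makes the transmitter GABA from glutamate, by 1.08 (0.08, adjusted p = 3.39e-06).

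**Figure D4:**
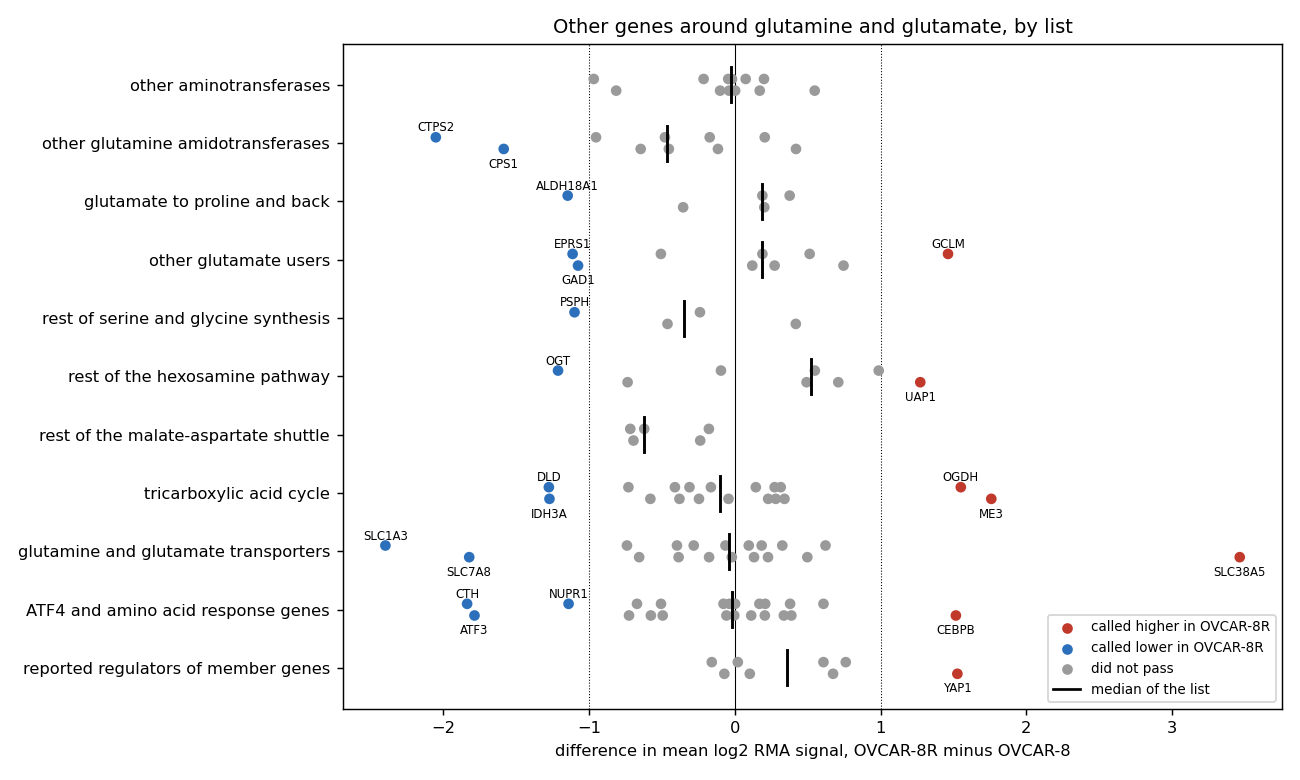
Difference in mean log2 RMA signal, OVCAR-8R minus OVCAR-8, for each tested gene of the 11 lists that held any, with genes called higher in red, called lower in blue and others grey; black bars are list medians and dotted lines mark 2-fold. The called genes range from SLC1A3 (-2.40) to SLC38A5 (3.46).

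In the hexosamine pathway beyond GFPT1, 1 of 8 genes was higher, 1 was lower and 6 did not pass, beside 16.7% of all genes called. UAP1, which makes UDP-N-acetylglucosamine at the end of the pathway, rose by 1.27 (standard error 0.07, adjusted p = 2.24e-07), with 11.62 ± 0.06 in OVCAR-8R and 10.34 ± 0.05 in OVCAR-8 (SD, n = 4 each). OGT, which puts that sugar on nuclear and cytosolic proteins, fell by 1.21 (0.09, adjusted p = 1.68e-06), and OGA, which removes it, had a difference of 0.55 (0.10). NAGK, the salvage kinase of N-acetylglucosamine, had a difference of 0.99 (0.10), at the edge of the 2-fold threshold. It was called higher in 6 of 16 other settings.

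The tricarboxylic acid cycle takes up the carbon of glutamate, while the malate-aspartate shuttle carries electrons between the compartments. All 5 shuttle genes beyond GOT1 and GOT2 had negative differences, from -0.72 for MDH1, the cytosolic malate dehydrogenase, to -0.18 for the carrier SLC25A13, and none reached 2-fold. At an adjusted p under 0.05 and any size, 4 of the 5 were lower, beside 30.0% of all genes lower and 27.6% higher by that rule. Higher and lower by it were also 1 and 7 of 10 amidotransferase genes and 5 and 2 of 8 hexosamine genes. For 4 serine and glycine genes the counts were 1 and 3, and for 5 proline genes 1 and 2. For 12 aminotransferase genes they were 2 and 3, and for 9 other glutamate users 4 and 3. For 18 cycle genes they were 7 and 8, for 18 transporter genes 4 and 6, and for 8 regulator genes 4 and 0. Of 18 cycle and malic enzyme genes, 2 were called higher, 2 were called lower and 14 did not pass, beside 16.7% of all genes called. OGDH, the first subunit of the α-ketoglutarate dehydrogenase complex, gave 9.63, 9.65, 9.63 and 9.61 on the OVCAR-8R arrays, against 8.00, 8.07, 8.14 and 8.10 on the OVCAR-8 arrays. DLD, the third subunit of that complex and one it shares with pyruvate dehydrogenase, gave 8.50, 8.40, 8.48 and 8.45 on the OVCAR-8R arrays, against 9.67, 9.76, 9.74 and 9.76 on the OVCAR-8 arrays. So these subunits of one complex differed in opposite directions, OGDH by 1.55 (standard error 0.06, adjusted p = 4.06e-08) and DLD by -1.28 (0.06, adjusted p = 1.55e-07), while DLST, the second subunit, had a difference of 0.23 (0.08). ME3, a mitochondrial malic enzyme, rose by 1.76 (0.12, adjusted p = 1.32e-06), and IDH3A, a subunit of NAD-dependent isocitrate dehydrogenase, fell by 1.27 (0.08, adjusted p = 6.90e-07).

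Among 18 transporter genes for glutamine, glutamate and their exchange partners, 1 was higher and 2 were lower, beside 16.7% of all genes called. SLC38A5, which carries glutamine, histidine and other neutral amino acids, gave 8.69, 8.83, 8.95 and 8.68 on the OVCAR-8R arrays, against 5.62, 5.43, 5.56 and 4.66 on the OVCAR-8 arrays, and rose by 3.46 (standard error 0.19, adjusted p = 3.42e-07). The OVCAR-8 mean of SLC38A5, 5.32, lay close to the lowest quartile, which ended at 5.16 in that line. The size of the rise thus rests on low signals. The glutamate importer gene SLC1A3 fell by 2.40 (0.12, adjusted p = 1.77e-07) and the neutral amino acid exchanger gene SLC7A8 fell by 1.82 (0.07, adjusted p = 3.54e-08). Their OVCAR-8R means, 6.11 and 5.54, lay below the array medians, and the lowest quartile ended at 5.11 in that line. The size of the SLC7A8 fall thus rests on low signals as well. SLC1A5 and SLC38A1, main glutamine importers of many cancer lines, had differences of -0.40 (0.09) and -0.39 (0.08), although the other SLC1A5 probeset gave 0.10.

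ASNS and PSAT1 belong to the genes that ATF4 induces. Of 22 other ATF4 and amino acid response genes 1 was higher, 3 were lower and 18 did not pass, with a median of -0.020. Over all genes 16.7% were called. CTH, which makes cysteine from cystathionine, gave 8.83, 9.26, 8.90 and 9.32 on the OVCAR-8R arrays, against 11.01, 10.82, 10.93 and 10.90 on the OVCAR-8 arrays, and fell by 1.84 (standard error 0.12, adjusted p = 9.41e-07). The stress factor genes ATF3 and NUPR1 fell by 1.79 (0.13, adjusted p = 1.60e-06) and 1.14 (0.11, adjusted p = 1.34e-05). CEBPB, a transcription factor that pairs with ATF4, rose by 1.52 (0.10, adjusted p = 1.34e-06). ATF4 itself had differences of -0.51 and -0.91 by its 2 probesets, each under 2-fold. At an adjusted p under 0.05 and any size, 6 of the 22 were higher and 8 lower, beside 27.6% and 30.0% of all genes. Under 2-fold on the lower side of that count were MTHFD2, a mitochondrial folate enzyme (-0.73), ALDH1L2 (-0.67), CEBPG (-0.58) and NARS1, which charges tRNA with asparagine (-0.49). On the higher side were AARS1, which charges tRNA with alanine (0.61), and CHAC1, which breaks down glutathione (0.39). VLDLR (0.38), WARS1 (0.34) and ATF5 (0.21) were on that side as well. The stress markers DDIT3 and TRIB3 had differences of 0.0019 (0.13) and 0.17 (0.11).

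Of 8 measured genes reported elsewhere to regulate the enzymes, 1 was higher and 7 did not pass, beside 16.7% of all genes called. YAP1, a coactivator reported to raise GLUL in liver of zebrafish, rose by 1.53 (standard error 0.09, adjusted p = 3.45e-07), with 10.56 ± 0.10 in OVCAR-8R and 9.04 ± 0.12 in OVCAR-8 (SD, n = 4 each). CRBN, a substrate receptor that marks glutamine synthetase protein for degradation, had a difference of 0.67 (0.09), NR3C1, the glucocorticoid receptor, one of 0.76 (0.07), and MYC one of 0.61 (0.10). CTNNB1, encoding β-catenin, which drives GLUL around the central vein of the mouse liver, had a difference of -0.072 (0.06). Whether any of these bears on GLUL was not tested.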

How the data were processed

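RNA of 8 spheroid samples was measured on Affymetrix Human Gene 1.0 ST arrays. The authors computed signals by RMA (background correction, quantile normalization, probe summary) in Affymetrix Expression Console version 1.1 and deposited linear intensities for 33297 probesets. Log2 values had been planned for, and the linear intensities were therefore converted to log2. Quantile normalization hides any shift common to all genes. Probesets annotated to 1 gene were used by name (19460, of which 19429 were found in RefSeq of GRCh38.p14), while 1754 name several genes and 12083 are unnamed here. As in the methods, low probesets were dropped, here those whose mean log2 lay in the lowest quartile of OVCAR-8R (5.11) and of OVCAR-8 (5.16), which kept 25628. Of several probesets of a gene, the brightest on average stood for it. Differences came from lmFit and eBayes (limma 3.58.1 under R 4.3.3) without a replicate block, with the t-test that the methods name as an alternative. On simulated data for this comparison (25236 probesets) 96 of 100 probesets with a true log2 change of 1.5 were called, and 96 of 100 with one of 2. The changed probesets were not drawn from the dimmest, and noise was independent between arrays, so these shares may not hold for the real arrays.

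The members and the gene lists were chosen with earlier results of these data known. Named are every member with every probeset, up to 3 called genes per list and direction, and the 5 genes nearest to GLUL. Genes named that did not pass were chosen after their values were seen. The titles call the samples biological replicates and no source used here says at which step they were separated, so a p-value covers only the spread among these 8 samples, which may be partly technical. The small number of arrays limits the precision. Promoter sequences are those of RefSeq (GRCh38.p14).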

Additional observations from a re-analysis of the deposited data

How the results depend on the processing

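Over 12 alternatives and the 8 fits that each left out 1 array, the counts of called probesets and of called pathway genes stayed within 1.5 times of the values given, except when treat tested against a 2-fold margin: 1059 probesets were then higher and 832 lower, against 1819 and 1856, and 8 pathway genes were lower, against 14. Fewer pass there by construction. The methods' t-test at an unadjusted p under 0.01 and 2-fold called 3572 probesets, and as many after Benjamini-Hochberg adjustment. Leaving out 1 array gave 1751 to 1883 probesets higher and 1752 to 1991 lower, and 7 to 8 pathway genes higher and 13 to 15 lower. The differences of the 6 enzyme genes moved by less than the spread between replicates, except under cyclic loess, which shifted the median of all probesets by 0.053, and for GLUL on averaging its probesets (-3.86). Cyclic loess gave GOT2 0.46, GOT1 0.28, GFPT1 0.070, PSAT1 -0.75 and ASNS -1.36, and the cause was not tested. Without 1 array, GLUL ran from -5.11 to -4.82, ASNS from -1.48 to -1.43, PSAT1 from -0.88 to -0.81, GOT2 from 0.28 to 0.36, GOT1 from 0.12 to 0.19 and GFPT1 from -0.12 to 0.0036. Array weights stopped before full convergence.

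Arrays with the same replicate number deviated from their line's mean with correlations over probesets of 0.165, -0.323, -0.052 and 0.443 for numbers 1 to 4. The titles do not say whether the numbers pair the samples, and with 4 arrays per line these correlations cannot decide it. Not every array correlated best with its own number. OVCAR-8 array 4 gave -0.467, 0.383, -0.337 and 0.443 with OVCAR-8R arrays 1 to 4. OVCAR-8 array 2 gave 0.353, -0.323, 0.276 and -0.324 with the same arrays. Some variation within the lines was thus shared across them, and its source was not tested. With a replicate block, 1823 probesets were higher and 1858 lower, the pathway counts were 7 and 14, and the differences of the 6 genes were the same.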
